A study of Mus musculus with 38 samples.

Results

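A set of 7 transcripts was followed through B cell differentiation: syndecan-1, which is the surface antigen CD138, and 6 receptor genes that carry survival signals to plasma cells. The files list them in capitals as SDC1, TNFRSF17, TNFRSF13B, TNFRSF13C, IL6RA, IL6ST and CD28, and they are printed below in mouse style. They were chosen by name from 21032 gene names that occur once in any of the 3 file types, and all 7 were found in every RNA library. SDC1 encodes a marker used to sort the cells of all 7 groups, and CD28 encodes a second marker used to sort the plasma cells, so their levels in cells sorted by them are descriptions and not findings.

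Plasma cells do not divide and live only as long as their niche supplies survival factors. The receptor BCMA (Tnfrsf17) binds the ligand APRIL and, more weakly, BAFF. TACI (Tnfrsf13b) binds both, and the BAFF receptor (Tnfrsf13c) binds BAFF and keeps mature B cells alive. Interleukin-6 binds its own receptor chain (Il6ra), and the shared chain gp130 (Il6st) passes the signal to JAK kinases and STAT3. CD28 is best known as the costimulatory receptor of T cells, binds CD80 and CD86, and is also carried by plasma cells. Syndecan-1 is a membrane proteoglycan whose heparan sulphate chains bind APRIL and other factors.

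RNA was sequenced from C57BL/6 mouse cells in 14 libraries, 2 for each of 7 groups. The other 24 of the 38 samples are not analysed here. All groups carry 1 allele of Blimp1 (Prdm1), the repressor that drives plasma cell differentiation, in which green fluorescent protein (GFP) reports its activity. In 4 groups the cells had been cultured for 4 days with lipopolysaccharide and all carried Cd23-Cre, which is active in mature B cells. Of these, 3 had the genotype Blimp1(GFP/+) Cd23(Cre/+): activated B cells were sorted as CD138- GFP-, pre-plasmablasts as CD138- GFP+, and plasmablasts as positive for both. Blimp1-deficient pre-plasmablasts had a floxed second allele, Blimp1(GFP/fl) Cd23(Cre/+), and were sorted as CD138- GFP+ cells that were also CD22hi, so that genotype and gate differ together. In a separate experiment Blimp1(GFP/+) cells, without mention of a Cre allele, were cultured with lipopolysaccharide for 4 days and with DMSO or with GSK343, which blocks EZH2, the enzyme that methylates histone H3 in Polycomb repression, and pre-plasmablasts were sorted. The labels give no dose. Plasma cells came directly from Blimp1(GFP/+) mice as CD28+ CD138+ GFP+ cells negative for lineage markers, and neither their tissue nor the age of the animals is stated in the labels.

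Promoter sequences are shown for 4 of the genes because these 4 differ in how their transcripts moved: Sdc1 and Tnfrsf17 moved together, Il6st had a single step, and Tnfrsf13c went the other way. Each is the 250 bases before the RefSeq start on build GRCm38.p6, written 5′ to 3′ on the strand of the gene, in lower case, with motif matches in capitals. The files of this study were made on build mm9, so these positions were not joined to any value of the files.
Sdc1, chr12:8771146-8771395, plus strand: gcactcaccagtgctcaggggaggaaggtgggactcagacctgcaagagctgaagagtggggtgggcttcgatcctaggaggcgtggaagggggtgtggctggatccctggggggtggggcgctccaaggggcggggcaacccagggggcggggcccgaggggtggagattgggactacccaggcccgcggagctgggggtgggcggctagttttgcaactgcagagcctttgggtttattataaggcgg
Tnfrsf17, chr16:11313559-11313808, plus strand: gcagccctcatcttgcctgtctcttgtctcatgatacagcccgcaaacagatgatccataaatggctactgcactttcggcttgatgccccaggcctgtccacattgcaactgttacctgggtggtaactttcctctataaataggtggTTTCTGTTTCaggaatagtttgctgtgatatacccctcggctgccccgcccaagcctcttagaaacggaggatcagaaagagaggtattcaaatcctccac
Tnfrsf13c, chr15:82224381-82224630, minus strand: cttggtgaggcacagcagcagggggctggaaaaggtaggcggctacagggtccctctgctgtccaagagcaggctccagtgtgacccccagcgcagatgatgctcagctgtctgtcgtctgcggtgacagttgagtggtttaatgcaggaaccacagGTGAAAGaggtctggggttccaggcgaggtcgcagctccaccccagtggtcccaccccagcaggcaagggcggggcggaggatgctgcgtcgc
Il6st, chr13:112463820-112464069, plus strand: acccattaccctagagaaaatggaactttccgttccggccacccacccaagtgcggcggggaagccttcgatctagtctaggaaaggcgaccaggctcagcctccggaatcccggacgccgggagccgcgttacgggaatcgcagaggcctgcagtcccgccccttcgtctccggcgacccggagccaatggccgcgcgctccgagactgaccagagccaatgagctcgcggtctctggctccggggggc

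A pair of motifs was searched on both strands in these 250 bases for the 6 genes with a RefSeq promoter entry. GNGAAAG is the core of the textbook Blimp1 site, and the other is the repeat bound by interferon regulatory factors, a pair of GAAA copies with 2 free bases between them. Both hold the letters GAAA, and matches may overlap. The capitals in Tnfrsf13c mark a GNGAAAG match from 93 to 87 bases before the start, a motif that 19.4% of 32851 mouse promoters hold. The capitals in Tnfrsf17 mark the GAAA repeat on the opposite strand from 101 to 92 bases before the start, a motif that 2.98% of the promoters hold. The windows of Sdc1, Tnfrsf13b, Il6ra and Il6st hold neither set of letters. GC content was 66.0% in Sdc1 with 10 CpG pairs, 66.0% in Il6st with 26, 63.2% in Tnfrsf13c with 10 and 49.2% in Tnfrsf17 with 5.

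Values are RPKM, the number of reads scaled to transcript length and to the total number of reads, as the authors deposited them, and every mean is given with its SD over 2 libraries (n = 2). Fold changes are differences of log2(RPKM + 1), which understates changes of low genes, and a gene is called at a limma adjusted p under 0.05. The labels do not state whether paired libraries are separate mice or separate cultures, so p-values measure the spread between these libraries, which may be technical. A change printed without a unit is a difference on this log2 scale. In bulk RNA, fewer cells of a type and less RNA per cell cannot be told apart. Prdm1 was at 7.45 and 10.7 RPKM in activated B cells, 428.8 and 326.7 in control pre-plasmablasts, 362.8 and 289 in plasmablasts, 198.5 and 171.1 in the Blimp1-deficient cells, 108.4 and 106.4 with DMSO, 106.7 and 83.4 with GSK343, and 221.9 and 224.9 in plasma cells. The gene-level value includes the reporter allele and the parts of the floxed allele outside the deletion, so it does not check the genotype in full. The summed level of 8 B cell markers was 3395 and 3595 RPKM in activated B cells, 2307 and 2469 in control pre-plasmablasts, 1492 and 1607 in plasmablasts, 4042 and 4277 in the cells deficient for Blimp1, 3012 to 3632 in the inhibitor libraries and 1652 and 1416 in plasma cells. That of 8 markers of antibody-secreting cells was 122.5 and 311.8 RPKM in activated B cells, 4661 and 6618 in control pre-plasmablasts, 9151 and 14240 in plasmablasts, 494.8 and 639.5 in the deficient ones, 4204 to 5202 in the inhibitor libraries and 35790 and 35440 in plasma cells. The deficient cells lay above activated B cells in the first sum and nearer to them than to control in the second. Depth behind the 8 GC-normalized files is unknown. In the inhibitor files, relative to the first DMSO library, depth was 0.848 for the other DMSO library and 1.008 and 0.832 for the GSK343 libraries.

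**Figure D1:**
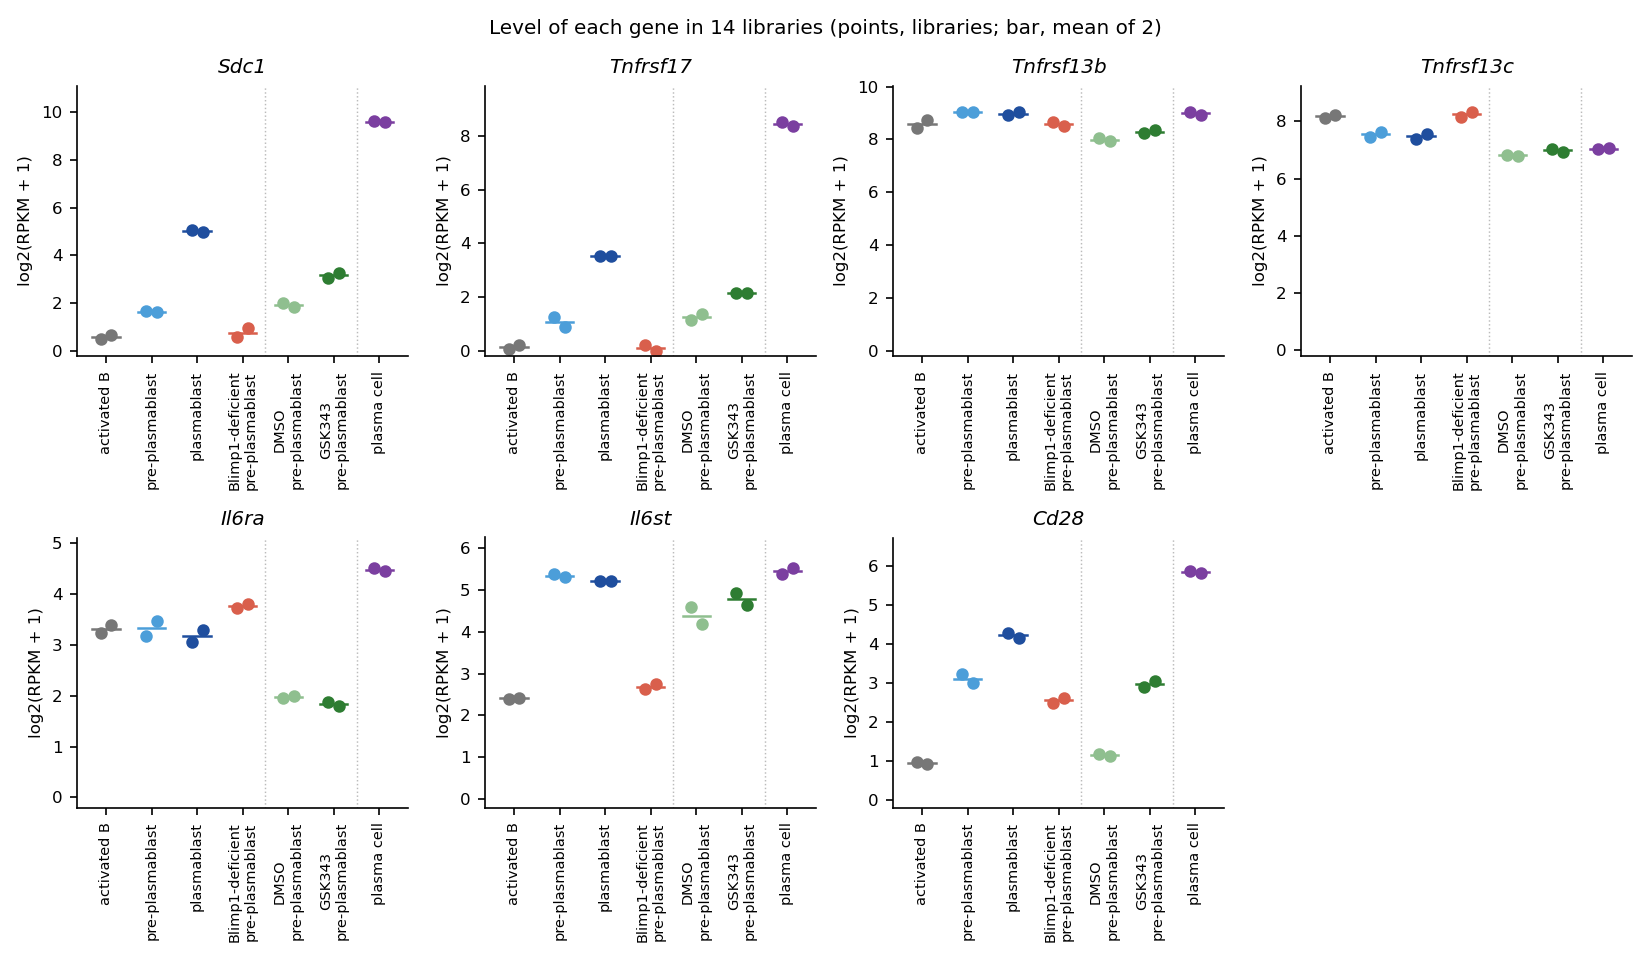
Level of each of the 7 genes as log2(RPKM + 1) on the vertical axis in 14 libraries (points) with the mean of each group (bars). Dotted lines part the 3 file types, which were normalized separately and are not compared by test. Sdc1, Tnfrsf17 and Cd28 climb from activated B cells to plasmablasts, Il6st has its whole step at the pre-plasmablast, and Tnfrsf13b and Tnfrsf13c are high in every library.

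In pre-plasmablasts against activated B cells, 5 of the 7 genes rose (Sdc1, Tnfrsf17, Tnfrsf13b, Il6st and Cd28) and Tnfrsf13c fell, where 20.2% of 10473 tested genes rose and 28% fell. In plasmablasts against pre-plasmablasts, Tnfrsf17 and Cd28 rose and none of the 7 fell, where 0.716% of the tested genes rose and 1.62% fell. Sdc1 was called higher as well, but these groups were sorted on its protein, so that call is a description and no finding. Across both steps, plasmablasts against activated B cells, the same 5 genes rose and Tnfrsf13c fell, beside 21.3% of all tested genes higher and 33.9% lower. The limit on Sdc1 holds there too. The median log2 fold change of the 7 genes was 0.95 in the first comparison, beside -0.12 over all tested genes, and -0.06 in the second, beside -0.04. These 3 comparisons share libraries.

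In Blimp1-deficient against control pre-plasmablasts, 5 of the 7 genes fell (Sdc1, Tnfrsf17, Tnfrsf13b, Il6st and Cd28) and Tnfrsf13c and Il6ra rose, where 16.1% of the tested genes fell and 24.4% rose. This comparison uses the same control libraries as the first one, so opposite signs in the pair are not separate evidence. Set against activated B cells, the Blimp1-deficient cells had Cd28 higher and none of the 7 lower, where 10.4% of all genes were higher and 7.6% lower. The titles of these 8 libraries fall into 2 number series, with 1 library of each group in each. With that series as a block, Il6ra (adjusted p = 0.00269) and Il6st (adjusted p = 0.0149) were called higher as well. The block called 2319 of all 10473 tested genes higher there. Markers of other cells moved with the comparison to control: Itgam, a myeloid integrin chain, rose from 0.508 and 0.675 RPKM in control to 9.65 and 14.1 in deficient pre-plasmablasts, Tyrobp, an adaptor of myeloid and natural killer cells, from 3.37 and 3.61 to 18.5 and 17.1, Hbb-b1, a haemoglobin chain, from 0.338 and 0.651 to 10.8 and 10.1, and Pecam1, an endothelial adhesion molecule, from 9.57 and 9.75 to 44.9 and 42.2. In activated B cells these 4 stood at 10.6, 14.7, 9.92 and 36.0 RPKM on average, and each fell in control pre-plasmablasts. Of 4 tested stromal and epithelial markers Pecam1 was the 1 that rose. Epcam fell from 10.45 and 13.53 RPKM in control to 0.513 and 1.21, and Krt18 from 0.456 and 0.418 to 0.2 and 0.0988. Cdh5 was at 0.567 and 0.560 against 0.352 and 0.487, not called. Beside Hbb-b1, Car2 was at 2.17 and 2.62 against 3.72 and 3.17 and Itga2b at 0.950 and 0.942 against 0.478 and 0.201, neither called. Of 11 myeloid markers these files list 2, which summed to 28.6 and 22.0 RPKM in activated B cells, 3.88 and 4.28 in control and 28.2 and 31.1 in the deficient cells, and neither was at 0. Their part in the levels of the 7 genes was not tested.

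With GSK343 against DMSO, Sdc1, Tnfrsf17, Tnfrsf13b and Cd28 rose and none fell, beside 12.7% of 9479 tested genes higher and 5.86% lower. Without the filter on low values, limma called 0 of the 7 genes and 0 of 20650 genes, with 5 of the 7 at an unadjusted p under 0.05.

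The shares of all genes depend on the fit. With the block, 733 genes rose and 1395 fell in plasmablasts against pre-plasmablasts, in place of 75 and 170. In the deficient cells the block called 4226 genes higher and 2603 lower than in control pre-plasmablasts, in place of 2553 and 1681, and 2319 higher and 2158 lower than in activated B cells, in place of 1089 and 796. Median-of-ratios scaling moved the median of all genes in plasmablasts against activated B cells from -0.18 to -0.01, and the calls from 2228 higher and 3547 lower to 2772 and 2626. With the same scaling the calls were 103 higher and 140 lower in plasmablasts against pre-plasmablasts, 1853 and 2049 in Blimp1-deficient against control pre-plasmablasts, and 1049 and 855 with GSK343 in place of 1208 and 555. Leaving out 1 of the 8 libraries gave 3 to 45 higher and 18 to 104 lower genes in plasmablasts against pre-plasmablasts. In the deficient cells against activated B cells it gave 492 to 588 higher and 227 to 372 lower genes when a library of either group was left out, and with GSK343 541 or 557 higher and 259 or 190 lower without its first or second library. Without the first deficient library, 1663 genes were higher than in control pre-plasmablasts in place of 2553. No called change of the 7 genes turned its direction under median-of-ratios scaling. In the GC-normalized files, 23 of 23 called changes of the 7 genes had the same direction within each library number series. The groups did not overlap in any of these changes, which fixes that result in advance, so it is no separate support.

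**Figure D2:**
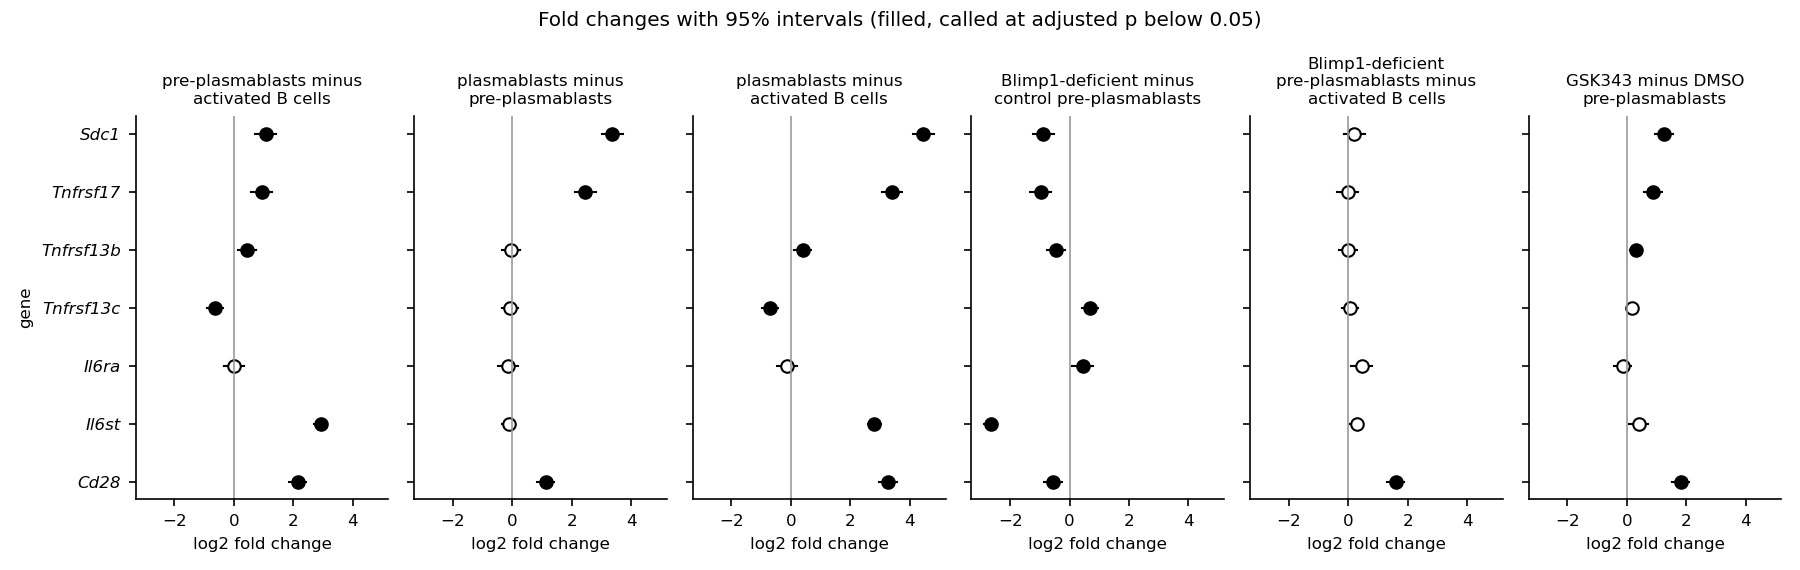
Difference in log2(RPKM + 1) of each gene (rows) in 6 comparisons (panels), with 95% intervals from limma as lines. Filled points are called at an adjusted p under 0.05: 6 of 7 in the first panel, 3 in the second, 6 in the third, 7 in the fourth, 1 in the fifth (Cd28) and 4 in the sixth.

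Sdc1, the syndecan-1 gene, was at 0.408 and 0.585 RPKM in activated B cells, 2.19 and 2.13 in pre-plasmablasts and 32.7 and 30.4 in plasmablasts. The groups did not overlap. Pre-plasmablasts had been sorted as negative for the protein, and their transcript was higher than in activated B cells by 1.08 ± 0.15 log2 units (SE, limma adjusted p = 0.00125). The further difference to plasmablasts, 3.36 ± 0.15 (SE, adjusted p = 0.0007), lies between cells sorted for the protein itself and is a description.

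In Blimp1-deficient pre-plasmablasts Sdc1 stood at 0.511 and 0.954 RPKM, below both control libraries, and fell by 0.88 ± 0.15 log2 units (SE, limma adjusted p = 0.00404). Against activated B cells the difference was 0.20, with a 95% interval from -0.15 to 0.55. Both of these groups were CD138- by sort. With DMSO it was at 3.01 and 2.57 RPKM and with GSK343 at 7.27 and 8.75, a rise of 1.25 ± 0.14 (SE, adjusted p = 0.000139) within the CD138- gate. Those values rest on 120, 87, 292 and 290 reads, or a whole multiple of these numbers. Sdc1 reached 779.7 and 752.6 RPKM in plasma cells, above 99.5% of the 11165 genes listed in all 3 file types.

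The list of other syndecans and of heparan sulphate enzymes had 25 tested genes of 30. In pre-plasmablasts against activated B cells 11 rose and 4 fell (20.2% and 28% of all genes), with a median of 0.32 beside -0.12 over all genes. Hs3st3b1, a heparan sulphate sulphotransferase, rose from 0.223 ± 0.001 to 2.29 ± 0.272 RPKM and Sulf2, an enzyme that trims sulphate from the chains, from 0.62 to 3.11 RPKM. Hs3st1, another sulphotransferase, fell by 1.37 on the log2 scale and Ugdh, which makes the glucuronic acid building block, by 1.14. The syndecan gene Sdc4 went from 124.4 and 100.4 RPKM in activated B cells to 241.4 and 209.2 in pre-plasmablasts and back to 113.2 and 104.1 in plasmablasts. Its rise of 1.00 (adjusted p = 0.001) and fall of 1.04 (adjusted p = 0.0141) were both called. Sulf2 also fell at the second step, and no other gene of the list was called there. With the block 5 fell and Sdc3 rose, where 1395 of all 10473 tested genes fell and 733 rose.

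In Blimp1-deficient against control pre-plasmablasts 6 of the 25 genes rose and 9 fell, where 24.4% and 16.1% of all genes did, so the number that rose is near the background. Hpse, the heparanase that cuts heparan sulphate, rose from 8.22 to 42.2 RPKM (a log2 change of 2.23 at an adjusted p = 6.22e-05), and Ugdh rose by 1.17. Sdc4 fell by 1.797 and Sdc3, a further syndecan, by 1.14. Against activated B cells 7 genes of the list were higher and 2 lower (10.4% and 7.6% of all genes), with Sulf2 at 5.80 against 0.62 RPKM and Hpse at 42.2 against 14.2 RPKM. Sdc4 and Ext1, a polymerase of the heparan sulphate chain, were the 2 lower ones. With GSK343, Ext1 rose by 0.85, Xylt1, which starts the sugar chain on the protein, by 0.79 and Hpse by 0.36, and none of 24 tested genes fell. Of all genes 12.7% rose and 5.86% fell.

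Tnfrsf17, the gene of BCMA, was at 0.0333 and 0.146 RPKM in activated B cells, 1.36 and 0.867 in pre-plasmablasts and 10.4 and 10.6 in plasmablasts. Each group lay above the one before it. The first difference was 0.95 ± 0.15 (SE, adjusted p = 0.00222) and the second 2.45 ± 0.15 (SE, adjusted p = 0.00278), on the log2(RPKM + 1) scale. When the 2 groups of the second comparison were fitted alone, Tnfrsf17 had an adjusted p = 0.0712 and Cd28 an adjusted p = 0.0886.

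In Blimp1-deficient pre-plasmablasts Tnfrsf17 was listed at 0.153 RPKM in one library and at 0 in the other, a fall of 0.97 ± 0.15 log2 units against control (SE, limma adjusted p = 0.00269). The difference to activated B cells was -0.02, with an interval from -0.37 to 0.33. It stood at 1.23 and 1.56 RPKM with DMSO and at 3.46 and 3.40 with GSK343, a rise of 0.89 ± 0.14 (SE, adjusted p = 0.00105) that rests on 13 and 14 reads against 37 and 30, or a whole multiple. In plasma cells it reached 368.7 and 331.5 RPKM, above 98.9% and 98.8% of the shared genes.

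Tnfrsf13b, the gene of TACI, lay above 96.4% or more of the shared genes in each of the 14 libraries. Its levels were 347 and 425.2 RPKM in activated B cells, 522 and 527.6 in pre-plasmablasts, 483.3 and 525.3 in plasmablasts and, in the Blimp1-deficient cells, 403.5 and 363.1. The rise of 0.45 ± 0.13 to pre-plasmablasts (SE, adjusted p = 0.0245) and the difference of -0.45 ± 0.13 in the deficient cells (SE, adjusted p = 0.0281) were small and near the threshold. The first call was lost without the first activated B cell library (0.30, adjusted p = 0.133) and without either pre-plasmablast library (adjusted p = 0.0826 and 0.0877). The second was lost without any 1 of the 4 libraries compared (adjusted p from 0.0592 to 0.131). The rise of 0.39 in plasmablasts against activated B cells was lost without the first activated B cell library (0.24, adjusted p = 0.19), without any 1 of the pre-plasmablast or plasmablast libraries (adjusted p from 0.0562 to 0.149) and with only those 2 groups fitted (adjusted p = 0.0817). Plasmablasts differed from pre-plasmablasts by -0.06, with an interval from -0.36 to 0.24. It was at 267.3 and 241.6 RPKM with DMSO and 301.7 and 326.7 with GSK343, a rise of 0.30 ± 0.08 (SE, adjusted p = 0.0288) that was not called with median-of-ratios scaling (0.24, adjusted p = 0.0905), nor without the second DMSO library (0.23), the first GSK343 library (0.36) or the second (0.25). Plasma cells had 530.5 and 480.4 RPKM, above 99.3% and 99.2% of the shared genes. Usp22, a neighbouring gene, overlaps Tnfrsf13b in the RefSeq table, and the strand setting of the counting is not given in the sources used here. This level is uncertain to that extent.

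Tnfrsf13c, the gene of the BAFF receptor, went the other way. It was at 277.1 and 297.3 RPKM in activated B cells, 174.8 and 198.4 in pre-plasmablasts and 166.5 and 187.5 in plasmablasts. The first step was a fall of 0.62 ± 0.11 log2 units (SE, limma adjusted p = 0.00456), and the second difference was -0.08 with an interval from -0.35 to 0.20. In Blimp1-deficient pre-plasmablasts it stood at 284.9 and 317.7 RPKM, higher than in control by 0.69 ± 0.11 (SE, adjusted p = 0.00383) and not different by the test from activated B cells (0.07, interval -0.21 to 0.34). With DMSO and GSK343 it was at 113.2 and 109.4 against 130.1 and 121.6 RPKM, a difference of 0.18 (adjusted p = 0.151). Plasma cells still had 129.9 and 132.6 RPKM, above 95.8% of the shared genes in both libraries.

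The balance between the 2 receptors was read within each library as the log2 ratio of Tnfrsf17 to Tnfrsf13c, each with 1 RPKM added. It averaged -8.05 ± 0.03 in activated B cells, -6.48 ± 0.37 in pre-plasmablasts and -3.95 ± 0.11 in plasmablasts, while the Blimp1-deficient cells had -8.14 ± 0.26 (SD, n = 2 each). It was -5.56 ± 0.18 with DMSO and -4.84 ± 0.05 with GSK343. In plasma cells it was 1.41 ± 0.13, so that the transcript of BCMA exceeded that of the BAFF receptor in these 2 libraries and in none of the other 12. Only the 8 GC-normalized libraries were corrected for GC content, and a ratio within a library may not remove that difference between file types. Most of the range came from Tnfrsf17, since Tnfrsf13c means lay between 111.3 and 301.3 RPKM in all 7 groups.

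**Figure D3:**
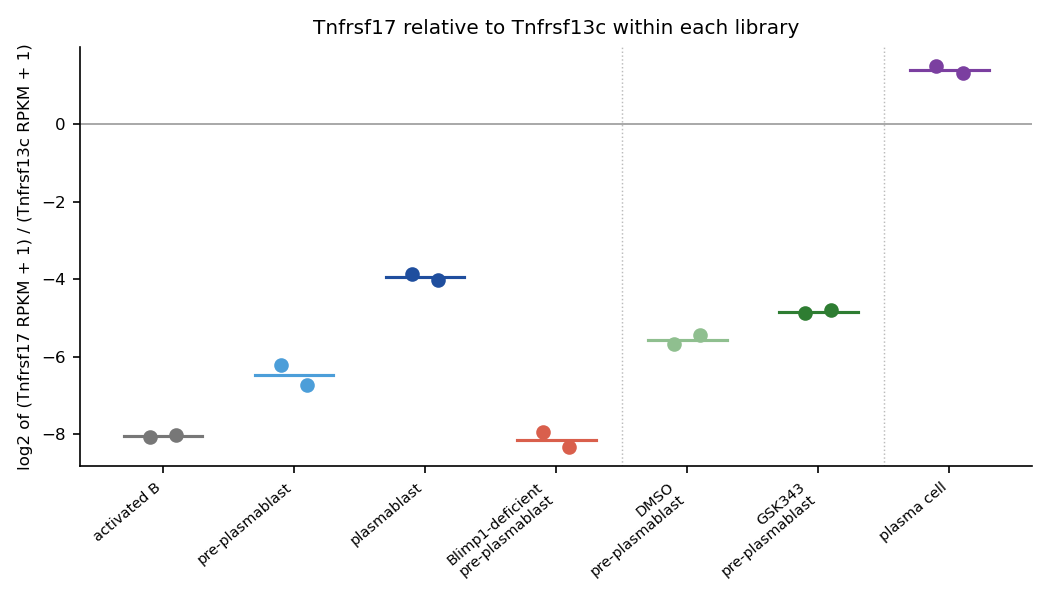
Log2 ratio of Tnfrsf17 to Tnfrsf13c (1 RPKM added to each) in each of 14 libraries (points) with group means (bars). The line at 0 marks equal levels: the plasma cell libraries lie above it at 1.498 and 1.315, and the other 12 lie below it.

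Of the genes that act with these 3 receptors, 15 of 18 listed were tested. In pre-plasmablasts against activated B cells 10 fell and 2 rose (28% and 20.2% of all genes), with a median of -0.66 beside -0.12 over all genes. Traf5, an adaptor of the receptor family, fell from 11.4 to 1.83 RPKM and Map3k14, the kinase NIK of the alternative NF-kB arm, from 22.2 ± 3.21 to 6.87 ± 1.03 RPKM. Traf3, the adaptor that holds NIK in check, fell by 0.57 (adjusted p = 0.00203), and for Traf2, its partner, the difference was -0.38 (adjusted p = 0.0703). Chuk and Traf6, a kinase and an adaptor upstream of NF-kB, were the 2 that rose, by 0.39 and 0.37. In plasmablasts against pre-plasmablasts Nfkb2, the precursor subunit of the same arm, fell from 56.6 to 40.5 RPKM, and no other gene of the list was called. With the block 5 fell, Nfkb2, Nfkb1, Relb, Map3k14 and Traf1, and none rose. Of all 10473 tested genes 1395 fell and 733 rose with it.

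In the deficient cells 6 of the 15 rose and Traf6 fell against control, beside 24.4% and 16.1% of all genes. With the block 10 rose and 2 fell, beside 4226 and 2603 of all 10473 tested genes. Traf5 rose to 13.5 RPKM (a log2 change of 2.35 at an adjusted p = 0.000183) and Traf1, a further adaptor, to 111.2 from 45.01 RPKM. Map3k14 was at 11.8 RPKM, above control pre-plasmablasts by 0.70 (adjusted p = 0.00807) and below activated B cells by a log2 difference of -0.85 (adjusted p = 0.00861). With GSK343, Relb, a subunit of the alternative arm, fell by 0.39 and no other gene of the 15 was called. Of all genes 12.7% rose and 5.86% fell. Tnfsf13b, which encodes BAFF, was at 0.0901 and 0.212 RPKM with DMSO, 0.134 and 0.0542 with GSK343 and 1.97 and 1.63 in plasma cells.

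Proteases that release these receptors from the cell surface were followed as a list of 13, of which 9 were tested. In pre-plasmablasts against activated B cells 5 rose and 2 fell, where 20.2% and 28% of all genes did, with a median of 0.42 beside -0.12. Ncstn, the nicastrin subunit of the gamma-secretase that cuts BCMA, rose from 38.8 ± 2.06 to 72.9 ± 11.7 RPKM (a log2 change of 0.88 at an adjusted p = 0.00461). Rhbdf1, a partner of the protease ADAM17, rose by 1.00 and Adam10, which cuts TACI, by 0.28 (adjusted p = 0.0382), whereas Rhbdf2 fell by 0.78 and Adam17 by 0.34. In plasmablasts against pre-plasmablasts no gene of the list was called. With the block Rhbdf2 was lower (-0.31), as were 1395 of all 10473 tested genes. In the deficient cells 1 of the 9 rose and 3 fell against control, where 24.4% and 16.1% of all genes did. With the block 3 rose and 4 fell, where 4226 and 2603 of all 10473 tested genes did. Ncstn fell by 0.62 (adjusted p = 0.0229) while Rhbdf2 rose by 0.84. With GSK343 Ncstn rose by 0.28 and Rhbdf2 fell by 0.42.

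Il6st, the gene of gp130, had a single large step. It was at 4.24 and 4.36 RPKM in activated B cells, 40.2 and 38.6 in pre-plasmablasts and 36.2 and 36.1 in plasmablasts. The first difference was 2.93 ± 0.09 (SE, adjusted p = 1.54e-05), and the second was -0.12 with an interval from -0.34 to 0.10. In Blimp1-deficient pre-plasmablasts it was at 5.18 and 5.72 RPKM, a fall of 2.65 ± 0.09 log2 units (SE, limma adjusted p = 4.03e-05). With a pseudocount of 1 this was the largest difference of the 7 genes in that comparison, and with 0.1 that of Tnfrsf17 was larger (-2.90 against -2.83). These libraries lay above both activated B cell libraries by 0.28 ± 0.09 (SE), which was not called (adjusted p = 0.0803) except with the block (adjusted p = 0.0149).

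In the inhibitor experiment Il6st was at 23.0 and 17.1 RPKM with DMSO and 29.1 and 24.0 with GSK343. Both treated libraries were above both controls, and the difference of 0.40 ± 0.14 was not called (SE, adjusted p = 0.0742). It turned on single libraries: it was 0.60 without the first DMSO library (adjusted p = 0.000241), 0.19 without the second (adjusted p = 0.326) and 0.26 without the first GSK343 library (adjusted p = 0.395). Plasma cells had 40.8 and 44.95 RPKM, above 83.3% and 85.0% of the shared genes.

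Il6ra, the chain that binds interleukin-6, had similar levels in the 3 control groups sorted from culture. It was at 8.40 and 9.51 RPKM in activated B cells, 8.07 and 10.1 in pre-plasmablasts and 7.39 and 8.79 in plasmablasts, and these 3 groups overlapped. Pre-plasmablasts differed from activated B cells by 0.02, with an interval from -0.33 to 0.36. In Blimp1-deficient pre-plasmablasts it was at 12.2 and 13.1 RPKM, a rise of 0.44 ± 0.14 against control (SE, adjusted p = 0.049) that was at the edge of the threshold and lost it in 11 of the alternative fits, among them those without either deficient library (adjusted p = 0.113 and 0.176) or the first control library (adjusted p = 0.222). With DMSO it was at 2.86 and 2.97 RPKM and with GSK343 at 2.66 and 2.48, a difference of -0.13 (interval -0.42 to 0.15). Plasma cells had 21.9 and 20.9 RPKM, above 70.1% and 68.9% of the shared genes, where the DMSO libraries ranked above 33.7% and 34.1%. Gm46811, a long non-coding RNA, overlaps Il6ra in the RefSeq table, so its level is uncertain to that extent.

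The list of genes that act with these chains had 21 tested genes of 24 in the GC-normalized files, and its members moved in both directions. In pre-plasmablasts against activated B cells 5 rose and 9 fell (20.2% and 28% of all genes), with a median of -0.18 beside -0.12. Pim1, a survival kinase and a known STAT3 target, rose from 148.2 to 752.5 RPKM (a log2 change of 2.34 at an adjusted p = 1.58e-05) and Cebpb, a transcription factor of the interleukin-6 response, from 27.4 to 123.6 RPKM. Stat3 itself fell from 89.8 and 89.0 to 56.3 and 58.3 RPKM (adjusted p = 0.000642), the kinase Jak1 from 127.2 to 42.1 RPKM, and Socs3, the feedback inhibitor that binds gp130, from 111.3 and 147.8 to 34.3 and 38.3 RPKM. Il27ra, a receptor chain that pairs with gp130, fell by 2.61 and Ptpn6, a phosphatase that dampens receptor signals, by 2.23. In plasmablasts against pre-plasmablasts Il21r, the interleukin-21 receptor, fell by 1.36, and no other gene of the list was called. With the block 6 fell, among them Pim2 (-0.58), Socs3 (-0.34) and Jak1 (-0.34), and 2 rose. Of all 10473 tested genes 1395 fell and 733 rose with it.

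In the deficient cells 9 of the 21 rose and 4 fell against control, where 24.4% and 16.1% of all genes did, so the number that fell is near the background. Ptpn6 rose by 2.06, Il27ra by 1.52, Jak1 by 0.84 and Stat3 by 0.27, while Cebpb fell by 2.21, Pim1 by 1.399 and Socs3 by 0.77 (adjusted p = 0.021). The ligand gene Il6 was at 10.7 and 8.82 RPKM in activated B cells, 12.7 and 17.1 in control pre-plasmablasts and 35.0 and 24.1 in the deficient ones. Its difference to control was 0.93 ± 0.21 (SE, adjusted p = 0.0139), so Il6 and Il6ra stood higher and Il6st lower in the deficient cells. In plasma cells Il6 was listed at 0 in both libraries, and Socs3 at 0.960 and 1.63 RPKM. With GSK343, 4 of 19 tested genes rose and 3 fell (12.7% and 5.86% of all genes). Socs1, another feedback inhibitor, rose by 0.85 and the kinase gene Pim2 by 0.76, while Cebpb fell by 0.95 and Il21r by 0.36.

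Cd28 was at 0.961 and 0.904 RPKM in activated B cells, 8.30 and 6.89 in pre-plasmablasts and 18.5 and 16.7 in plasmablasts. It rose by 2.15 ± 0.12 at the first step (SE, adjusted p = 4.02e-05) and by 1.12 ± 0.12 at the second (SE, adjusted p = 0.0105). The second call was lost without any 1 of the 4 pre-plasmablast and plasmablast libraries, with values from 1.00 to 1.24 over the fits that leave out a library. Cd28 was not a sort marker in these groups.

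In Blimp1-deficient pre-plasmablasts Cd28 was at 4.61 and 5.08 RPKM, between activated B cells and control pre-plasmablasts and overlapping neither. It was higher than in activated B cells by 1.60 ± 0.12 (SE, adjusted p = 0.000662), the 1 called difference among the 7 genes in that comparison, and lower than in control pre-plasmablasts by a log2 difference of -0.55 ± 0.12 (SE, adjusted p = 0.0123). The second call was lost without the first control library (-0.43, adjusted p = 0.0671) and without the first deficient library (-0.49, adjusted p = 0.0673). Of 10 T cell markers, 3 are listed in these files. Their summed level was 207.5 and 156 RPKM in activated B cells, 65.0 and 70.6 in control pre-plasmablasts and 303.4 and 259.4 in the deficient ones, none was at 0, and Cd2, which B cells also express, made up most of it. Cd8b1, a T cell coreceptor chain, was at 0.0382 and 0.021 RPKM in activated B cells and at 4.99 and 5.09 in the deficient cells. Cd247, the remaining marker, was at 3.62 and 4.72 RPKM in activated B cells, 4.27 and 6.31 in control and 3.43 and 4.98 in the deficient cells. Their part in the level of Cd28 was not tested.

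With GSK343 Cd28 rose from 1.25 and 1.17 RPKM with DMSO to 6.39 and 7.23, by 1.82 ± 0.13 log2 units (SE, limma adjusted p = 7.93e-06), the largest change of the 7 genes in that experiment. The values rest on 35 and 28 reads against 181 and 169, or a whole multiple. All 10 T cell markers are listed in these files. Between 3 and 7 of them were at 0 in each library, Cd3e was at 0 in all 4, and Cd3d was at 0.171 RPKM or less. The list summed to 50.2 and 52.9 RPKM with DMSO and 38.0 and 32.1 with GSK343, and Cd2 alone made up 49.7 and 32.9 RPKM of the group means. Other members had a higher mean with GSK343: Cd3g, a chain of the T cell receptor complex, was at 0 and 0.088 RPKM with DMSO and 0.296 and 0.179 with GSK343, Thy1 at 0 and 0.0521 against 0.219 and 0.106, and Cd4 at 0 and 0.0292 against 0.0491 and 0.119. Cd247, also on the list, had a lower mean with GSK343, at 1.68 and 1.36 RPKM against 1.78 in both DMSO libraries. The part of T cells in the rise of Cd28 was not tested. Of 8 markers of antibody-secreting cells, Cd93 rose, Slpi and Irf4 fell, and Prdm1 differed by -0.19 (adjusted p = 0.269). DMSO-treated pre-plasmablasts had less Cd28 than the untreated pre-plasmablasts of the GC-normalized files, but the file types were normalized separately and this was not tested.

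Plasma cells had 57.2 and 55.4 RPKM of Cd28, above 88.5% and 88.1% of the shared genes, in cells sorted for the protein. In these 2 libraries Cd3e was at 0.197 and 0.123 RPKM and Cd8a at 0 and 0.0189, while Cd4 was at 12.8 and 8.87. The 10 T cell markers summed to 61.1 and 46.8 RPKM. Of 11 myeloid markers 10 are listed, with a sum of 91.9 and 43.0 RPKM that S100a9, a granulocyte protein, led at 46.1 and 14.9 RPKM. Haemoglobin beta (Hbb-b1) was at 48.8 and 27.2 RPKM. The part of other cells in the plasma cell levels of the 7 genes was not tested.

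The list of CD28 partners also holds general signalling genes. In pre-plasmablasts against activated B cells 9 of its 13 tested genes fell and 2 rose (28% and 20.2% of all genes), with a median of -0.48 beside -0.12 over all genes. The ligand gene Cd86 fell from 16.1 and 23.1 RPKM to 2.53 and 4.61 (a log2 change of -2.19 at an adjusted p = 0.00809), and the ligand gene Cd80 was at 4.17 and 8.18 against 5.74 and 10.6 RPKM (adjusted p = 0.615). Grap2, an adaptor that binds CD28, fell by 2.70. Ctla4, the inhibitory receptor for the same ligands, rose from 1.26 and 1.74 to 60.7 and 56.5 RPKM (a log2 change of 4.58 at an adjusted p = 1.54e-05), and the Src-family kinase Fyn rose by 1.67. In plasmablasts against pre-plasmablasts no gene of the list was called. With the library number series as a block 5 were, where 733 of all 10473 tested genes rose and 1395 fell. Ctla4 (0.57) and Grap2 (0.58) were higher, and Cd86 (-0.97), Cd80 (-0.72) and Pik3cd (-0.32), a kinase subunit, were lower.

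In the deficient cells Ctla4 was at 5.19 and 5.25 RPKM and Cd86 at 16.3 and 24.3 RPKM. Against control, Ctla4 fell by 3.26 and Fyn by 1.07, while Cd86 rose by 2.23 and Lcp2, an adaptor of T cell receptor signalling, by 2.16. Against activated B cells Ctla4 was higher by 1.32 (adjusted p = 0.00237), as Cd28 was. With GSK343, 4 of 11 tested genes rose and none fell (12.7% and 5.86% of all genes). Lck, the Src-family kinase of T cells, rose from 2.46 and 2.19 to 9.47 and 8.35 RPKM (a log2 change of 1.57 at an adjusted p = 1.94e-05), Fyn rose by 0.70, and Ctla4 went from 49.9 and 49.8 to 67.7 and 72.7 RPKM. In plasma cells Ctla4 was at 5.55 and 5.103 RPKM, Cd86 at 0.692 and 0.557 and Lck at 0.984 and 0.665.

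Of 9 genes that set cell survival and death downstream of such receptors, 8 were tested. Bcl2l1, which encodes the survival protein Bcl-xL, went from 12.7 and 15.3 RPKM in activated B cells to 136.6 and 131 in pre-plasmablasts and 117.3 and 111 in plasmablasts, and was at 13.7 and 16.5 in the deficient cells. Bcl2, its relative, went the other way, from 21.1 to 7.38 RPKM at the first step and to 32.8 RPKM in the deficient cells. Bcl2l11, which encodes the death protein Bim, fell by 0.95 at the first step and rose by 0.51 at the second (adjusted p = 0.0434). There the block also called Bak1, Bax, Bbc3 and Pmaip1, all death genes of the family, lower, as it did 1395 of all 10473 tested genes. With GSK343 Bcl2l11 rose from 19.4 and 16.3 to 49.7 and 54.9 RPKM (adjusted p = 6.19e-06) and Bcl2l1 fell from 112.3 and 110.3 to 84.7 and 89.8 RPKM (adjusted p = 0.00962). In plasma cells Bcl2l1 was at 15.5 and 19.2 RPKM, Bcl2 at 30.9 ± 1.08 and Mcl1, another survival gene of the family, at 271.3 and 281.5.

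For each gene the 3 transcripts with the most similar pattern were taken by Pearson correlation of log2(RPKM + 1) over the 8 GC-normalized libraries. These are 4 groups of 2 libraries in 2 library series, so the points are not independent and no p is given. Sdc1 and Tnfrsf17 were each closest to the other (r = 0.992). F2rl1, a protease-activated receptor, followed both (0.987 and 0.985), Cldn7, a claudin, was close to Tnfrsf17 (0.991), and Cage1 to Sdc1 (0.986). Among these 8 libraries Sdc1 was highest in plasmablasts, the group sorted for its protein. A gene high mainly in that group resembles Sdc1 by that design, so likeness to Sdc1 is a description. Il6st was closest to Bcl2l1 (r = 0.998), then to an entry listed under a transcript number and to Hapln4, a hyaluronan link protein (0.997 each). Cd28 was closest to Cln8 (0.998), Rnf113a1 (0.995) and Yipf3 (0.993), and the deficient group had a higher mean than activated B cells for each of these, for Cln8 1.71 against 0.101 RPKM. Tnfrsf13c was closest to Ganc, Fcrl5 and Arap2 (0.997, 0.995 and 0.995), and Fcrl5, a receptor of B cells, had 81.0, 13.4, 8.88 and 107.7 RPKM in activated B cells, pre-plasmablasts, plasmablasts and deficient cells. Tnfrsf13b was closest to Pik3ca, Pigo and Dusp8 (0.981, 0.973 and 0.972). Il6ra was closest to Plac8, Tut1 and Fxr1 (0.990, 0.985 and 0.984), with Plac8 at 886.9 RPKM in the deficient cells and 90.7 to 172.3 RPKM in the other 3 groups.

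**Figure D4:**
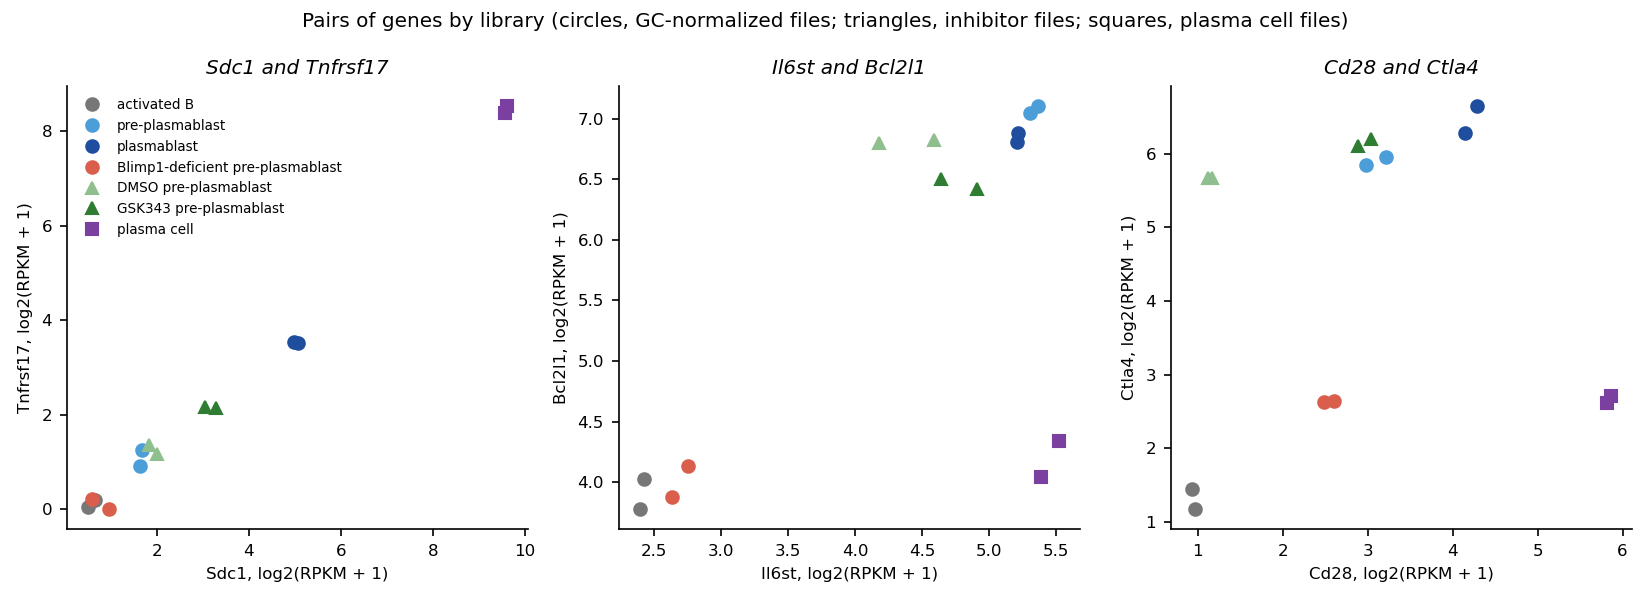
Levels of 3 pairs of genes as log2(RPKM + 1), 1 point per library, by group (colour) and file type (shape), which were normalized separately. Sdc1 and Tnfrsf17 have the same order of group means but for activated B cells and Blimp1-deficient cells, which overlap, whereas plasma cells (squares) have high Il6st with Bcl2l1 at 15.5 and 19.2 RPKM, and high Cd28 with Ctla4 at 5.55 and 5.103 RPKM.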

How the data were processed

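RNA was measured in 14 libraries of 7 groups, 2 libraries each, assigned by genotype, treatment and sort labels. Per the labels' protocols, polyadenylated RNA was sequenced as strand-specific libraries. The build mm9 and the tools SICER, DESeq 1.8.3, HTSeq 0.5.3 and TopHat 1.4.1 are listed per the submitters' processing notes, which do not tie them to steps here. The authors deposited RPKM values. Those of 8 libraries were corrected for GC content, per the file names (11567 entries each), and those of the 4 inhibitor libraries and 2 plasma cell libraries hold 21025 entries each without that correction. Entries with a repeated name were left out. Each plasma cell file holds 5 read-counter summary names with no value, which shift names against values. They were dropped so that names and values line up. The number of reads is unknown for the GC-normalized files, because their low values show no shared unit (set against the first library, 1 ratio held for no more than 4.22% of low genes in each of the other 7). The low values of the inhibitor libraries do lie on steps of whole reads.

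From these values log2(RPKM + 1) was computed. The limma package 3.58.1 in R 4.3.3 (eBayes with trend, two-sided) was applied to genes that reached 1 RPKM in 2 or more libraries of the fit, with 1 fit for the 8 GC-normalized libraries (10473 genes) and 1 for the 4 inhibitor libraries (9479 genes). P-values were adjusted by Benjamini-Hochberg over all genes tested and called under 0.05. Plasma cell libraries were normalized separately and are described by level and by percentile among 11165 names listed once in all 3 file types. Library titles fall into 2 number series. Deviations from group means correlated between groups within a series, with r of 0.666 to 0.781 in all 6 pairs, so the series was treated as pairing the libraries in an alternative fit. The fit was tested on simulated data. That simulation drew each library independently and changed only genes well above the floor, so it does not cover the correlated series or low genes. Python 3.11.15, pandas 2.3.3, scipy and matplotlib 3.10.9 were used.

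The 7 genes and the 13 gene lists, from textbook knowledge, were chosen with earlier results of these data known. All 7 passed the filter on low values in both fits. Beside the 7 genes, the text names for each list and comparison the called genes with the largest changes, at most 2 each way, direct ligands, adaptors and proteases, and for likeness the 3 highest correlations; any other gene named was chosen after its values were seen. Of the genes that rule selects, 1 is not reported here. Alternatives were another pseudocount, no filter, median-of-ratios scaling, no trend, fits of only the 2 groups compared, the library series as a block, and leaving out each library. The block was applied to the pathway lists as an alternative chosen after seeing the data.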

Additional observations from a re-analysis of the deposited data

How the results depend on the processing

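Of the fits that changed a setting, 215 left direction and call of a gene as they were, and 14 lost a call, 2 gained one and 3 changed sign. Among fits that left out a library, in which a lone library is assumed to vary like the other groups, 269 left them as they were, 28 lost a call, 1 gained one and 10 changed sign; the cause was not tested. The block of library series changed no call except Il6ra and Il6st in deficient cells against activated B cells, where 3 genes were called in place of 1. In the gene lists, where it was applied after seeing the data, every gene called without the block was also called with it, and more genes were called in plasmablasts against pre-plasmablasts. Fitting only the 2 groups compared left 1 called gene of 3 in plasmablasts against pre-plasmablasts, Sdc1, on whose protein these groups were sorted. Counts of called genes in comparisons with plasmablasts include Sdc1. Without a filter on low values, limma called 0 of the 7 genes with GSK343 in place of 4, with 5 at an unadjusted p under 0.05, among 20650 genes of which many are at 0. Leaving out libraries gave 5 to 6 called genes in pre-plasmablasts against activated B cells, 2 to 3 in plasmablasts against pre-plasmablasts, 5 to 6 in plasmablasts against activated B cells, 4 to 6 in deficient against control cells (4 without the first control or the first deficient library), 1 to 1 in deficient against activated B cells and 3 to 5 with GSK343.

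Over all genes, 75 rose and 170 fell in plasmablasts against pre-plasmablasts, 40 and 152 with a pseudocount of 0.1, 1 and 0 with only the 2 groups compared, and 733 and 1395 with the block. In deficient against activated B cells 1089 rose and 796 fell, 724 and 476 with only the 2 groups compared, and 2319 and 2158 with the block. In deficient against control cells 2553 rose and 1681 fell, and 4226 and 2603 with the block. With GSK343 1208 rose and 555 fell, and none without the filter.

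Signs changed only for uncalled differences. Median-of-ratios scaling gave 0.019 for Tnfrsf13b and 0.0025 for Tnfrsf13c in plasmablasts against pre-plasmablasts, and 0.041 for Il6ra in plasmablasts against activated B cells. Leaving out libraries gave -0.13 to 0.16 for Il6ra in pre-plasmablasts against activated B cells, -0.12 to 0.0014 for Tnfrsf13b and -0.17 to 0.015 for Tnfrsf13c in plasmablasts against pre-plasmablasts, and in deficient against activated B cells -0.12 to 0.084 for Tnfrsf17, -0.15 to 0.14 for Tnfrsf13b and -0.011 to 0.15 for Tnfrsf13c. With a pseudocount of 0.1 the log2 ratio of Tnfrsf17 to Tnfrsf13c was -10.6 in activated B cells, -7.29 in pre-plasmablasts, -4.06 in plasmablasts, -10.9 in deficient cells, -6.23 with DMSO and -5.16 with GSK343 and the groups kept their order. With names as they stand in the plasma cell files, the levels would read 30.5 RPKM for Sdc1, 8.91 for Tnfrsf17, 20.03 for Tnfrsf13b, 0.0297 for Tnfrsf13c, 0.0115 for Il6ra, 0.0996 for Il6st and 71.9 for Cd28. With 2 libraries a group, calls of small changes such as those of Tnfrsf13b and Il6ra turn on single libraries.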
